A study of Mus musculus with 2 samples.

Results

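The 50 genes described here drive DNA replication and mitosis, and they were chosen by function from a list of names: the E2F and Rb family, replication licensing, S phase and mitotic genes. They were read against 1 list of 5727 regions bound by Brg1 or Brm (islands, the term of the island caller SICER) in mouse medulloblastoma. A gene was counted as having an island where any base of one lay inside the gene or within 5 kb of either of its ends. By function, 28 genes were placed in G1/S (entry into and passage through DNA synthesis) and 22 in G2/M (preparation for and passage through mitosis), and the comparison set was all 21883 protein-coding genes of RefSeq on mm10.

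Both libraries of the study, 1 ChIP and 1 input, came from primary medulloblastoma that formed spontaneously in mice of the genotype CAG-CreER, Rosa26-SmoM2, so every sample carried both alleles. SmoM2 is a constitutively active Smoothened, the signal transducer of the Hedgehog pathway, and CAG is a promoter active in most cell types, so expression of CreER was not limited to the cells from which the tumour arose. The ChIP used the J1 antibody, labelled as recognising Brg1/Brm, the ATPases of BAF chromatin remodelling complexes, so an island can hold either protein. The input library is not analysed here. Neither the labels nor the design text gives the age of the animals or how many tumours were pooled.

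The islands had a median of 68 reads (interquartile range 56 to 86) and a median width of 2200 bp. Reads outside islands, and so the library's depth, are unknown. Islands record binding and not RNA. Markers of cell types were set beside the 16.7% of all protein-coding genes that had an island by the same rule. All 5 granule lineage and Hedgehog markers (Atoh1, Barhl1, Zic1, Neurod1 and Gli1) had an island. Of 5 markers each, endothelial genes had 1 (Cdh5), oligodendrocyte genes 1 (Mbp), astrocyte genes 1 (Gfap) and microglia genes 0. With 5 genes in a list, counts of 0 and 1 are near the background share. The lists were chosen with earlier results of these data known, so the counts are no independent check of the labelled tissue. With 1 ChIP library there was no replicate error and no test between genes was made. Poisson intervals below cover the counting error of reads only. Binomial intervals treat the genes or windows of a list as independent draws, although the genes were chosen by function. Neither kind covers variation between libraries.

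Cells enter S phase when cyclin-dependent kinases phosphorylate the Rb pocket proteins and so free the E2F factors, which switch on genes for licensing, nucleotide supply and DNA synthesis. Later in the cycle the MuvB complex with B-Myb and FoxM1 switches on the mitotic genes, mostly through a short promoter element, the cell cycle genes homology region (CHR), next to boxes bound by NF-Y. Granule neuron progenitors of the cerebellum divide under Sonic hedgehog, and Shh-type medulloblastoma keeps that proliferative programme.

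Of the 50 genes, 6 had an island (12%, exact binomial 95% interval 4.53 to 24.3%), against 16.7% of all protein-coding genes (3657 of 21883). The share lay near the background. The 6 were E2f1, E2f2, E2f7, Cdt1 and Mcm5 among the G1/S genes, and Aurkb among the G2/M genes. Each had 1 island, each island was within 5 kb of a gene end, and none lay deeper inside a gene. Nearest to the 5 kb limit, the island of Aurkb lay 3126 bp from the gene, inside the limit, and that of Cdc25c 6583 bp away, outside it.

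G1/S genes had islands in 5 of 28 (17.9%, exact 95% interval 6.06 to 36.9%) and G2/M genes in 1 of 22 (4.55%, 0.115 to 22.8%), beside the 16.7% of all protein-coding genes. These intervals overlapped, and both held the background share. No base of any of the 22 G2/M genes was covered by an island, where 3 genes would be a share of 13.6%. Islands overlapped 4 of the 28 G1/S genes (14.3%) and 3173 of all protein-coding genes (14.5%). The members were not longer than genes in general: median length was 16.8 kb for G1/S genes, 14.3 kb for G2/M genes and 17.2 kb for all protein-coding genes.

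The promoters under the 5 G1/S islands are shown first, since they are where the islands of this group lie. Each runs from 250 bases before to 50 bases after the RefSeq start site (GRCm38.p6), 5′ to 3′ on the strand of the gene. The start site used for E2f1, and the whole of its window, lie inside the gene. Capitals mark 3 motifs on either strand: the E2F core (TTGGCGC or TTCCCGC), the CHR (TTTGAA or TTCGAA) and the NF-Y box (CCAAT).
E2f1, chr2:154569377-154569676, minus strand: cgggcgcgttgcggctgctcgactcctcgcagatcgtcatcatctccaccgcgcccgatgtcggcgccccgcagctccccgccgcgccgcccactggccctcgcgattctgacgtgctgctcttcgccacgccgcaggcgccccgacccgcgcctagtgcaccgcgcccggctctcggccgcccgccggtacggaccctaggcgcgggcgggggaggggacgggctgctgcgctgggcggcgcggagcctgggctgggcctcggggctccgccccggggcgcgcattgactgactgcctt
E2f2, chr4:136172024-136172323, plus strand: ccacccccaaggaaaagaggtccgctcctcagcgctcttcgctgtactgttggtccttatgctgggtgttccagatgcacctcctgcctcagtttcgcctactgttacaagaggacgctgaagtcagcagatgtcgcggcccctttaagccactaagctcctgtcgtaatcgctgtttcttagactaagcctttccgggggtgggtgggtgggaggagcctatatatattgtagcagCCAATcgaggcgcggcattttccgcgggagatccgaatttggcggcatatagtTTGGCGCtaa
E2f7, chr10:110745189-110745488, plus strand: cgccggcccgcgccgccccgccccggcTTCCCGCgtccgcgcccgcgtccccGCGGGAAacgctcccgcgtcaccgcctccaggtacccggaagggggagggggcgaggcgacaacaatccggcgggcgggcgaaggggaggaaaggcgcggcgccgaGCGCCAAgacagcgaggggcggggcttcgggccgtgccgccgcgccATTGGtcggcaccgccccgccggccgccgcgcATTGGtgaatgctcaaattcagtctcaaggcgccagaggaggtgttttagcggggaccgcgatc
Cdt1, chr8:122567765-122568064, plus strand: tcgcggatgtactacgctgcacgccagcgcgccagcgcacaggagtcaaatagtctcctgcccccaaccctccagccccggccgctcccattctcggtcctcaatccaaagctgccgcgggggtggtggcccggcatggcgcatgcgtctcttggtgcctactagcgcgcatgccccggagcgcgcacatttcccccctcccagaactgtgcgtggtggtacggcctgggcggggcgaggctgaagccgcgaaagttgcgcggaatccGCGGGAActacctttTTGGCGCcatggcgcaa
Mcm5, chr8:75109259-75109558, plus strand: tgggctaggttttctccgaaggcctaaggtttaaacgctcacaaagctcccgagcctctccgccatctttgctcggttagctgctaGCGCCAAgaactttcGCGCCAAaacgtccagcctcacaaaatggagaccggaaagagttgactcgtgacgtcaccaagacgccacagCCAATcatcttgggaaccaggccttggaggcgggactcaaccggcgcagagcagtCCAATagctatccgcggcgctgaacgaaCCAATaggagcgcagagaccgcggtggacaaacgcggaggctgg

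For contrast, 3 promoters without an island follow, picked after their motifs were seen: that of Mcm3, with as many E2F cores as any member promoter, and those of the mitotic genes Cdk1 and Top2a, which hold CHRs beside NF-Y boxes.
Mcm3, chr1:20820263-20820562, minus strand: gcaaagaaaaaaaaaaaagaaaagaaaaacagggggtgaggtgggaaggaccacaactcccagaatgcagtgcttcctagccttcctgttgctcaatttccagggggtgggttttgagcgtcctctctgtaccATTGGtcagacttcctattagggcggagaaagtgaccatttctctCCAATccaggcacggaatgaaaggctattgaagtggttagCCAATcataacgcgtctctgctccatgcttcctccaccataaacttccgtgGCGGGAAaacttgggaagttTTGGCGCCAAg
Cdk1, chr10:69352863-69353162, minus strand: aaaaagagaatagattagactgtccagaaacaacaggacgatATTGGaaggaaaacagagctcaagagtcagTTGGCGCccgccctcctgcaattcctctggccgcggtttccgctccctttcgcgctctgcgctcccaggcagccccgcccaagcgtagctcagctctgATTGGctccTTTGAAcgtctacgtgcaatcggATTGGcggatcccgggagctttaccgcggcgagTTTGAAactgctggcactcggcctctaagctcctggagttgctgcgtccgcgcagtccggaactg
Top2a, chr11:99024140-99024439, minus strand: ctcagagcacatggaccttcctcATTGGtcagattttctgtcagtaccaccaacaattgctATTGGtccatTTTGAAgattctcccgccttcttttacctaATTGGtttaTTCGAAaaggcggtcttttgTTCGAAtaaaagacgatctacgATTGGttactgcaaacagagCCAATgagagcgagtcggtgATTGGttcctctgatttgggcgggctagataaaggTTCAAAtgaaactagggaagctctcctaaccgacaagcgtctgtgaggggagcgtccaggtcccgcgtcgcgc

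Among the E2F and Rb family, 3 of 11 genes had an island (27.3%, exact 95% interval 6.02 to 61%, which holds the 16.7% of all genes), all of them E2F genes. E2f1 to E2f3 encode the activators that drive S phase genes, and 2 of these 3 had an island (exact 95% interval 9.43 to 99.2%, which holds the 16.7%). The E2f1 island (chromosome 2, 154568665 to 154570464, 1800 bp) held 60 reads (exact Poisson 95% interval 45.8 to 77.2). It ran from 1038 bases before the start site used here to 761 bases after it. That start site lies inside the gene, and the island also covered the outer 5′ end, at 154569892. The E2f2 island (chromosome 4, 136171686 to 136173285, 1600 bp) held 61 reads (46.7 to 78.4). It covered the first of the gene's start sites in the table, from 588 bases before to 1011 bases after, and not the second one, which lies inside the gene. E2f3, the remaining activator, had no island within 99.0 kb.

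E2f7 and E2f8 encode the atypical E2F repressors, which bind DNA without a dimer partner. The E2f7 island (chromosome 10, 110744145 to 110746744, 2600 bp) held 64 reads (49.3 to 81.7) and was centred on the start site, with 1294 bases before it and 1305 after. Its read count was low for its width, at percentile 6.61 of the 416 islands of that width. E2f8 had no island, and its nearest lay 48.2 kb away. Of E2f4, E2f5 and E2f6, which mainly repress, none had one, with the nearest 42.3, 853 and 67.0 kb away.

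The pocket proteins that restrain the E2Fs had no island either. The nearest lay 48.5 kb from Rb1, 70.6 kb from Rbl1 and 113 kb from Rbl2, and these nearest islands overlapped the genes Rcbtb2, Soga1 and Chd9. Rb1, at 133 kb the longest of the 50 genes, held no island along its length. Of the 4 genes of cyclin E and its partners none had an island (exact 95% interval 0 to 60.2%, which holds the 16.7% of all genes). Distances were 324 kb for Ccne1 and 47.7 kb for Ccne2, which encode cyclin E, 98.9 kb for their kinase Cdk2, and 637 kb for Cdc25a, the phosphatase that activates it.

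Among the licensing genes, 2 of 9 had an island (22.2%, exact 95% interval 2.81 to 60%, which holds the 16.7% of all genes). Cdt1 loads the Mcm helicase onto origins. Its island (chromosome 8, 122565501 to 122567900, 2400 bp) held 70 reads (54.6 to 88.4) and lay wholly upstream, ending 115 bases before the start site. Mcm5 is a subunit of the Mcm2 to Mcm7 ring that unwinds DNA at the fork. Its island (chromosome 8, 75108302 to 75109701, 1400 bp) held 49 reads (36.3 to 64.8) and ran from 1207 bases before the start site to 192 after it. Cdt1 and Mcm5 stand on the same chromosome but far apart, so these were separate islands.

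Mcm5 was the 1 subunit of 6 in the ring with an island. The other genes of the ring had their nearest island 11.5 kb (Mcm2), 983 kb (Mcm3), 225 kb (Mcm4), 44.3 kb (Mcm6) and 46.6 kb (Mcm7) away. Mcm10, which helps to activate the ring, lay 23.0 kb from an island of 118 reads that overlapped Optn. Cdc6, the other loading factor, lay 27.3 kb from one. The 4 genes of S phase synthesis had none (exact 95% interval 0 to 60.2%, against 16.7% of all genes): the sliding clamp Pcna (323 kb), the ribonucleotide reductase subunits Rrm1 (470 kb) and Rrm2 (65.1 kb), and the thymidylate synthase Tyms (812 kb).

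**Figure D1:**
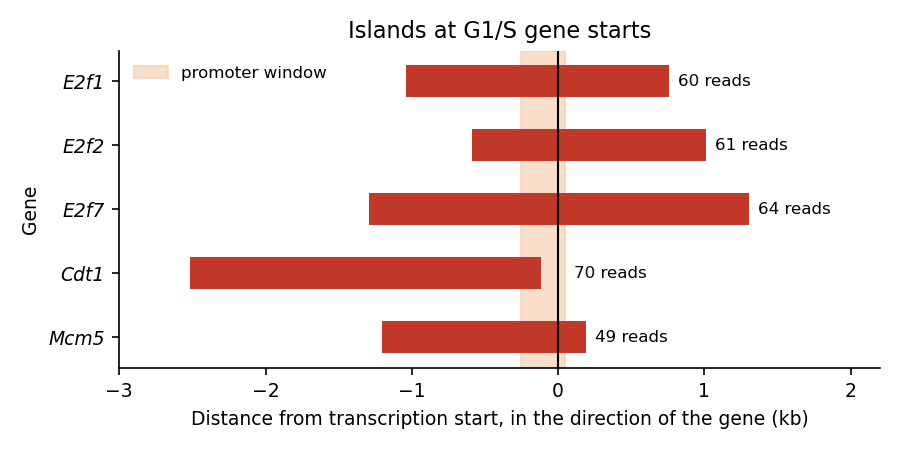
Extent of the islands at the 5 G1/S genes relative to the transcription start (0, vertical line), with distance in kb along the direction of the gene on the horizontal axis and the 300 base promoter window shaded. The islands of E2f1, E2f2, E2f7 and Mcm5 cross the start, and that of Cdt1 ends 115 bases before it. For E2f1 the start used lies inside the gene.

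All 5 G1/S islands lay at the 5′ end of the gene. Of the 41 members whose strand the promoter table gives, 5 (12.2%) had an island within 1 kb of the 5′ end, against 8.56% of all 17491 protein-coding genes with a strand. None of the 41 had one within 1 kb of the 3′ end, where 3 genes would be 7.32%, against 1.64% of all. No other protein-coding gene had an end within 1 kb of these 5 islands. Of all 1861 islands with a coding gene end within 1 kb, 306 (16.4%) had ends of several genes there. With 5 islands, a count of 0 is near that share.

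Of the 22 G2/M genes, the 1 with an island was Aurkb, the kinase of the chromosomal passenger complex that corrects faulty attachments of chromosomes to the spindle. The island (chromosome 11, 69040099 to 69042498, 2400 bp) held 86 reads (68.8 to 106), the most of the 6. It was high for its width, at percentile 94.1 of the 452 islands of 2400 bp. It did not touch Aurkb. It overlapped 4 tRNA genes of 72 bp each (n-TPcgg3, n-TDgtc9, n-TGtcc6 and n-TWcca7), and no protein-coding gene had an end within 1 kb of it. Such tRNA genes have near-identical copies elsewhere, and the part of reads placed among copies was not tested. Of the 5 G1/S islands, by contrast, 4 overlapped their own gene and the island of Cdt1 overlapped no annotated gene.

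The other 10 of the 11 mitotic cyclins, kinases and phosphatases had no island (1 of 11 is 9.09%, exact 95% interval 0.23 to 41.3%, which holds the 16.7% of all genes). The nearest lay 494 kb from Ccna2, 34.3 kb from Ccnb1 and 198 kb from Ccnb2, the cyclins A and B, and 149 kb from their kinase Cdk1. Of the phosphatases that activate Cdk1, Cdc25b was 61.6 kb from an island and Cdc25c 6.58 kb from one of 78 reads at an end of Fam53c. The distances were 183 kb for Plk1 and 132 kb for Aurka, kinases of centrosome maturation and spindle assembly. They were 281 kb for Cdc20, the activator of the anaphase-promoting complex, and 384 kb for Foxm1, the forkhead factor of mitotic genes.

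None of the 9 checkpoint, centromere and spindle genes had an island (exact 95% interval 0 to 33.6%, which holds the 16.7% of all genes). For the spindle checkpoint genes the nearest lay 21.8 kb from Bub1, 120 kb from Bub1b, 28.7 kb from Ttk and 310 kb from Mad2l1. For the centromere genes it lay 211 kb from Cenpa, 1400 kb from Cenpe, which was the farthest of all 50, and 466 kb from Cenpf. The spindle motor Kif11 was 168 kb from one, and Birc5 (survivin, a partner of Aurora B) 21.8 kb. Mki67, the gene of the proliferation marker Ki-67, was 158 kb from an island, and Top2a, the topoisomerase that untangles sister chromatids, 25.1 kb.

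Some members shared a neighbourhood. The island nearest to Birc5 (93 reads) lay at ends of Tk1, the thymidine kinase gene of S phase, and Afmid. Cdc6 and Top2a lie on either side of Rara, the retinoic acid receptor gene. The island nearest to Cdc6 (46 reads) and the one nearest to Top2a (133 reads) both lay within Rara. Tyms and Cenpa, 812 and 211 kb away, had the same nearest island, of 138 reads at an end of Agbl5.

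**Figure D2:**
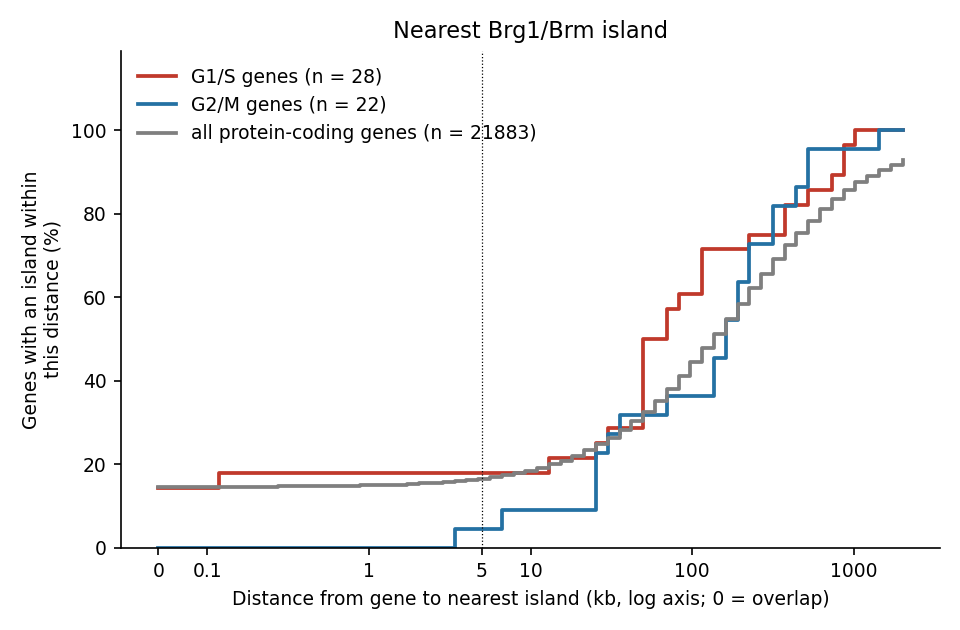
Cumulative share of genes (vertical axis, percent) whose nearest island lies within a given distance (horizontal axis, kb, log scale, with overlap drawn at 0), for G1/S genes, G2/M genes and all protein-coding genes; the dotted line marks 5 kb. At 5 kb the shares were 17.9%, 4.55% and 16.7%, and at 50 kb they were 50%, 31.8% and 32.7%.

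Beyond the genes themselves, an island within a given distance was more frequent for G1/S than for G2/M genes at 5, 10, 20, 50, 100 and 200 kb, and less frequent at 500 kb. The difference was not tested. The median distance to the nearest island was 56.8 kb for G1/S genes (interquartile range 26.2 to 250), 153 kb for G2/M genes (30.1 to 263) and 125 kb for all protein-coding genes (25.1 to 408). Within 100 kb there was an island for 67.9% of G1/S genes, 36.4% of G2/M genes and 45.1% of all. Within 200 kb the shares were 71.4% of G1/S genes, 68.2% of G2/M genes and 59.7% of all. Within 500 kb they were 85.7% of G1/S genes, 95.5% of G2/M genes and 77.6% of all. The interquartile ranges of the classes overlapped. All members lie on autosomes, while the comparison set includes genes of the X and Y chromosomes, and the X held 23 of the 5727 islands. Distances for autosomal genes alone were not computed.

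The 6 islands were ordinary in size. They held 49 to 86 reads, with a median of 62.5 against 68 for the whole list, and 4 of the 6 were below the list median. By rank among 5727, the Aurkb island was at 1420 and the others between 2655 (Cdt1) and 5037 (Mcm5). Read density was 4.92 to 7.62 reads per 200 bp, with a median of 6.83 against 6.27 for the list. Among islands of their own width, E2f1 stood at percentile 60.7, E2f2 at 81.9, Cdt1 at 47.6 and Mcm5 at 32.2. Since the numbers are the authors' own value per island and the Poisson intervals of all 5 G1/S islands overlapped, their order by reads was not distinguishable from counting error.

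Counts of genes with an island depended on how many reads an island had to hold. With islands at or above the median of 68 reads, 2 of the 50 genes had one (Aurkb and Cdt1), against 9.55% of all protein-coding genes. With islands of at least 86 reads only Aurkb did, against 5.15% of all. With a window of 1 kb the 5 G1/S genes had an island and no G2/M gene did, against 15% of all. With one of 10 kb Cdc25c joined the 6 genes, against 18.7% of all.

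**Figure D3:**
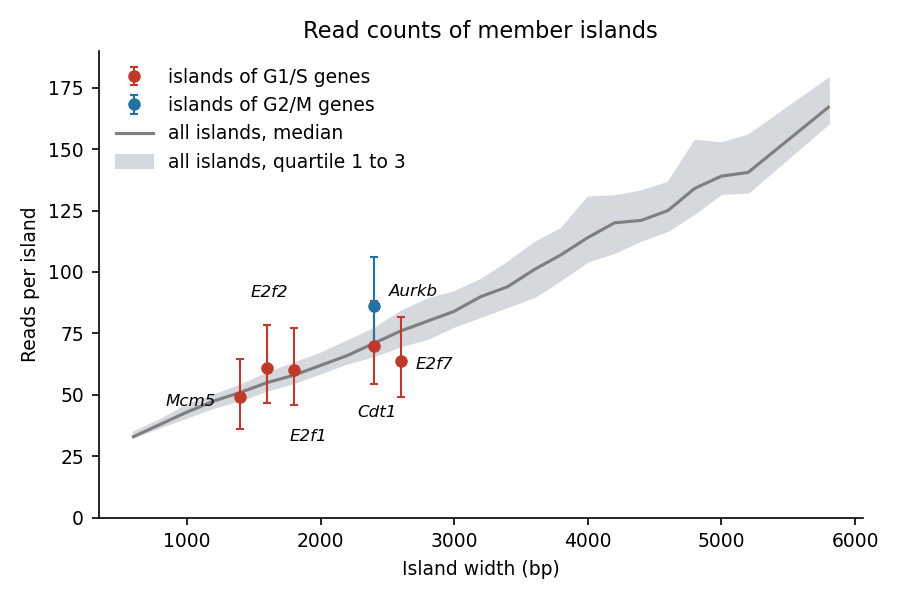
Reads per island (vertical axis) against island width (horizontal axis, bp) for the 6 islands, with exact Poisson 95% intervals, over the median and quartiles of all islands of the same width (widths with at least 20 islands). E2f7, with 64 reads, lies under the quartile band, and E2f2, with 61, and Aurkb, with 86, lie above it.

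The motifs known for these classes were counted in the promoter windows, with and without an island over them. The RefSeq table gave 44 promoter windows for 41 members, and those of E2f4, E2f5, Rb1, Ccne2, Mcm4, Ccna2, Cdc25c, Aurkb and Foxm1 were not used here. An E2F core stood in 14 of 26 G1/S windows (53.8%), 3 of 18 G2/M windows (16.7%) and 8.69% of the 21262 protein-coding windows. A CHR stood in 6 of 26 G1/S windows (23.1%), 14 of 18 G2/M windows (77.8%) and 17.6% of all. The NF-Y box stood in 17 G1/S windows (65.4%), 16 G2/M windows (88.9%) and 38.2% of all. In 3 places of the member windows bases were shared between an E2F core and an NF-Y box, in Ccnb1, E2f8 and Mcm7. A match says only that these letters stand in the window.

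Islands lay over 5 of 26 G1/S windows (19.2%, exact 95% interval 6.55 to 39.4%), beside 8.74% of all protein-coding windows. They lay over 0 of 18 G2/M windows (0 to 18.5%), where 3 windows would be 16.7%. Both intervals held the 8.74%. The 26 G1/S windows came from 23 genes, and the interval treats them as independent. Member promoters were rich in CpG: the median was 24.5 CpG per window for G1/S genes, 24 for G2/M genes and 13 for all. Among all windows with at least 13 CpG, 14.3% had an island over them, and among the member windows with as many, 5 of 38 did. The 5 were among 21 G1/S windows at that CpG content, and of the 17 G2/M windows none did. No interval was computed for these subsets, and the difference was not tested.

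Of the 5 windows with an island, 4 held an E2F core (E2f2, E2f7, Cdt1 and Mcm5), as did 10 of the 21 G1/S windows without one. The E2F cores of Cdt1 lay 18 to 24 and 33 to 39 bases after the start site, so beyond the end of its island. The E2f1 window held none of the 3 motifs, but this window lies inside the gene. The bases before the gene's outer 5′ end, at 154569892, were not searched. The E2f7 window held 3 E2F cores, and so did that of Mcm3, where a pair of them overlapped and whose nearest island was 983 kb away. The 5 windows, all of G1/S genes, held no CHR, where 3 windows would be 60%. A CHR stood in 6 of the 21 G1/S windows without an island (28.6%), the second E2f2 window among them. The difference was not tested. Among all protein-coding windows with an island over them, 14.5% held an E2F core and 12.9% a CHR.

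**Figure D4:**
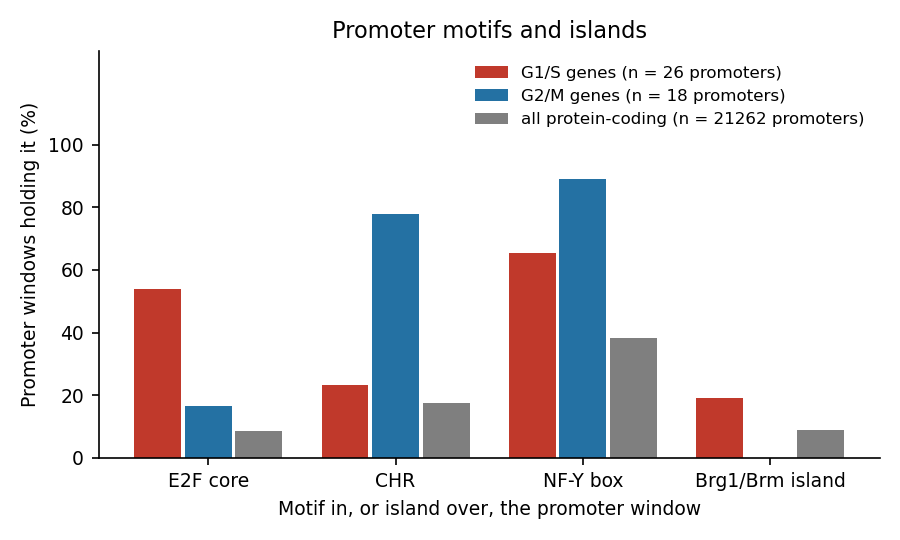
Share of promoter windows (vertical axis, percent) that hold an E2F core, a CHR or an NF-Y box, or that lie under an island, for G1/S genes, G2/M genes and all protein-coding genes. G2/M windows lead for the CHR at 77.8% and G1/S windows for the E2F core at 53.8%. Islands lie over 0 of 18 G2/M windows, 19.2% of G1/S windows and 8.74% of all windows. A link between motif and island was not tested.

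Further genes of the same processes were read in the same way. Of 43 further replication genes, 9 had one (20.9%, exact 95% interval 10 to 36%, against 16.7% of all). They were Tk1 with 93 reads, Rfc1 of the clamp loader with 83, Gins2 of the replicative helicase with 74, the primase subunit Prim1 with 65, the polymerase delta subunit Pold2 with 64, Pole4 of polymerase epsilon with 60, Orc1 of the origin recognition complex with 59, Orc5 with islands of 54 and 52, and Rpa3 of the single-strand binding protein with 49. In 6 of the 9 an island crossed a start site of the promoter table. For Orc1 this start lay inside the gene, near an end of Prpf38a, and the island did not reach the outer 5′ end. The islands of Prim1 and Gins2 lay outside the gene, 4515 and 1966 bp away, and overlapped the genes Naca and Gse1. That of Rfc1 lay inside Rfc1.

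Of 42 further mitosis genes, 10 had an island (23.8%, exact 95% interval 12.1 to 39.5%). They were Zwilch of the spindle checkpoint with 130 reads, the Cdk subunit Cks2 with 98, the condensin subunits Ncapd2 with 81, Smc4 with 66 and Smc2 with 63, Wee1, the kinase that inhibits Cdk1, with 76, the cohesin protector Sgo2a with 59, the Cdk subunit Cks1b with 50, the mitotic kinesin Kif20a with 45, and Racgap1 of the central spindle with 41. An island crossed a start site in 3 of the 10, and the windows of 4 others were not used here. The islands of Racgap1, Sgo2a and Ncapd2 lay wholly outside the gene, 4727, 3080 and 825 bp away, that of Sgo2a near an end of Aox1. Both intervals held the background share, and the difference between this list and the 4.55% of the 22 G2/M genes was not tested. Of the 17 islands of both lists with a coding gene end within 1 kb, 7 (41.2%) had ends of more than 1 gene there. Among all islands with such an end the share was 16.4%, and the difference was not tested. Examples were Rpl4 beside Zwilch and Gapdh beside Ncapd2. Of 9 partners of the E2F and MuvB complexes, 2 had an island (22.2%, exact 95% interval 2.81 to 60%, which holds the 16.7% of all genes). They were Tfdp2 (59 reads, 2536 bp outside the gene) and Lin54 (38 reads, inside it).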

How the data were processed

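The tools named in the submitters' processing notes are SICER 1.1, Bowtie 0.12.7 and Picard 1.127, with mm9 and mm10 as builds and no roles given. What settings SICER ran with, and whether the input was its control, is not given in the sources used here. No header is present in the deposited list, and its last column was taken as the count of reads per island, by the authors, unscaled for depth or width. Only enriched regions are listed, so where a gene has no island, weaker binding there cannot be judged.

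Coordinates were read as mm10: islands covered 1859 of 21262 RefSeq promoter windows as deposited, against 198 and 183 with the list moved by 100 kb either way. They are given 1-based. Gene extents and promoters were RefSeq GRCm38.p6. Overlaps were computed in Python 3.11.15 with pandas 2.3.3 and checked on simulated data; exact intervals used scipy 1.17.1. Every member was accounted for, and from the further lists each gene with an island was named. The members and lists were chosen with earlier results of these data known. The alternatives were other windows, stricter islands, midpoints, nearest gene, class makeup and background.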

Additional observations from a re-analysis of the deposited data

How the results depend on the processing

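The count of genes with an island, 6 of 50, was within 1.5 times of that in 9 of 11 alternatives: 5 to 7 across windows of 1, 2 and 10 kb and over the promoter window alone, and 6 with islands of at least 1 kb, midpoints, gene ends only, nearest gene end, or without 31 islands of high density. It moved with the read count required: 2 genes (Aurkb and Cdt1) with islands at or above the median of 68 reads, and 1 (Aurkb) with islands of at least 86 reads, where 9.55% and 5.15% of all protein-coding genes had one. G1/S genes with an island then numbered 1 and 0. Leaving out the 11 genes of the E2F and Rb family, 3 of them with an island, lowered the G1/S count to 2 by construction. G2/M genes with an island numbered 0 within 1 kb or 2 kb and 2 within 10 kb, where Cdc25c entered. The background of 16.7% was 11.2% over all annotated genes, 14.4% for protein-coding genes no longer than 133 kb, and 17.6% on autosomes. The autosome and promoter window alternatives were chosen after seeing the data. No paired analysis was possible because there was 1 ChIP library and no test.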
